A study of Cervus nippon with 12 samples.

Results

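Reserve mesenchyme cells (RMCs) at day 7 of chondrogenic induction (CP_7) were compared with RMCs at day 0 (CP_0) by small RNA sequencing, with 3 libraries in each group, taken from a series of 12 libraries. The 6 libraries were chosen by their labelled treatment alone. RMCs are the mesenchymal stem cells of the growth centre at the tip of the deer antler. They were wild type, and per the study's methods the sika deer were adult males of 3 years. The cells were maintained in DMEM with 10% fetal bovine serum, then placed in centrifuge tubes and given chondrogenic medium that was renewed every 2 days. CP_0 cells had 0 days of this treatment and CP_7 cells had 7 days, so the new medium and the culture in tubes cannot be told apart. The study's methods call the 3 replicates of a group biological, but the labels do not tie libraries to animals or cultures, so it is not known from them whether p-values cover the spread between animals or only that between cultures of 1 animal.

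A microRNA (miRNA) is a short RNA that guides the silencing complex to messenger RNAs, mainly through its seed, the few bases near its 5′ end, and miRNAs that share a seed form a family. A precursor hairpin yields a 5p and a 3p arm. Most hairpins keep mainly 1 arm in the silencing complex, so both arms of a hairpin are counted under their own names. In mesenchymal cells miR-21, miR-143, miR-145, miR-199 and miR-214 are among the abundant miRNAs, and miR-140 and miR-455 are known from cartilage, where SOX9 drives their host genes. Names starting with bta- were taken from cattle and are written here without that prefix, while names starting with novel_ are hairpins predicted from reads.

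The deposited tables listed 545 names, 475 of them from cattle and 70 novel_ names, and 485 had at least 1 read in these 6 libraries. Values were reads per 1000000 reads on listed miRNAs (RPM), and every one was a whole multiple of the value of 1 read within 0.01 read, so reads were recovered. CP_0 libraries held 2973442 to 4097304 reads and CP_7 libraries held 539455 to 1032029, with no overlap. A name with 0 reads could therefore be present at up to 0.732 to 1.01 RPM in CP_0 and up to 2.91 to 5.56 RPM in CP_7 (3 reads, counting error only).

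The first difference between the groups was how the reads were spread over miRNAs. miR-21-5p, an abundant miRNA of stromal and proliferating cells, took 59.8%, 61.7% and 59.5% of the CP_0 reads and 24.3%, 23.9% and 21.4% of the CP_7 reads in the 3 libraries of each. It thus outweighed all other names together in each CP_0 library and in no CP_7 library. let-7i rose from 5.18% ± 0.27 to 15.7% ± 1.3 of the reads (SD, n = 3). miR-148a, of the family it forms with miR-152, went from 1.76% ± 0.11 to 13.8% ± 0.74 and became the third most read name on average, while miR-143 went from 14.3% ± 1.4 to 9.36% ± 1.6. The 10 most read names of each library took 91.4% ± 0.48 of the reads in CP_0 and 78.0% ± 0.74 in CP_7. The effective number of miRNAs, the exponential of the Shannon entropy of the shares, was 5.67 ± 0.28 in CP_0 and 17.8 ± 0.93 in CP_7. When every library was thinned to the 539455 reads of the smallest, 288 ± 7.7 names were expected with at least 1 read in CP_0 and 337 ± 4.6 in CP_7. For each of these measures the groups did not overlap, and the exact two-sided permutation test gave p = 0.1, the smallest that 3 against 3 allows.

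**Figure D1:**
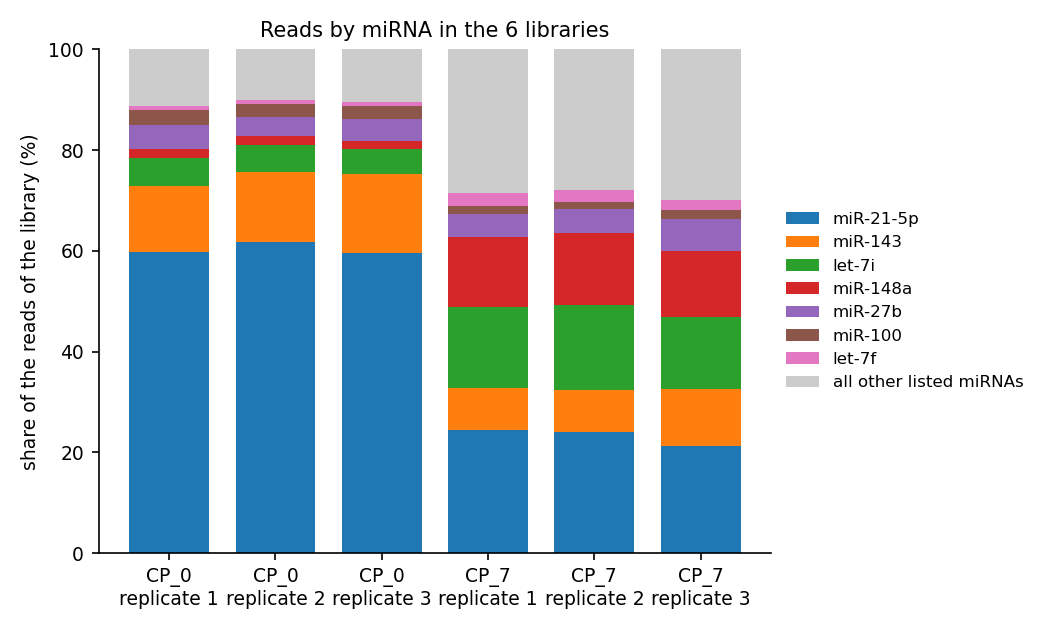
Share of the reads of each library (vertical axis, %) taken by the 7 leading miRNAs and by all other listed names, 1 bar for each of the 3 CP_0 and 3 CP_7 libraries. miR-21-5p falls from about 60.3% to 23.2% of the reads on average, while let-7i and miR-148a widen to 15.7% and 13.8%.

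A smaller share of miR-21-5p raises the RPM of other names even where their amounts do not change. Shares alone cannot tell this from a rise of many other names. For RPM as deposited, the median log2 fold change of the 246 tested names was 1.12, and with TMM composition factors it was 0.07. The TMM factors, which assume that most names do not change, were 0.639 to 0.735 in CP_0 and 1.39 to 1.56 in CP_7. Levels below are RPM divided by these factors ("normalised RPM"), and fold changes are on the log2(normalised RPM + 1) scale, which understates the change of names with few reads. By limma, 157 of the 246 names were called at an adjusted p below 0.05 (63.8%), 88 higher in CP_7 (35.8%) and 69 lower (28.0%). The normalised RPM of both groups did not overlap for 67.9% of the names tested, and 44.3% were called and changed at least 2-fold, 64 of them higher and 45 lower. Of the calls, 48 were under 2-fold. The split of directions moved with the scaling, from 61.8% of the names higher and 8.13% lower for RPM as deposited (library size only), through 26.4% and 35.4% with upper-quartile factors, to 8.94% and 50% for reads with no normalization, where the shallower CP_7 libraries lower every name. Under the 5 scalings that account for depth (TMM, RLE, upper quartile, library size only, and totals without miR-21-5p) 85 names kept their call and direction (34.6%), 65 higher and 20 lower, and 42 of these also kept it with no normalization. These 85 are called scaling-robust below. Relative to TMM, these scalings shift the median of all names up by as much as 1.05 (library size only). They shift it down by no more than 0.32 (upper quartile). A fall thus has more to withstand than a rise, and the split of 65 and 20 is partly set by the choice of scalings. With no normalization, which lowers every name, all 20 falls kept the call and 22 of the rises did. Since RNA was taken from whole cultures, fewer cells of a type and less RNA per cell cannot be told apart.

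Single libraries stood apart at a few names. CP_0 replicate 3 was over 4-fold above both other CP_0 libraries for 6 names with at least 50 reads, CP_7 replicate 1 for 8 and CP_7 replicate 3 for 3, while no library was that far below. CP_0 replicate 3 held 6933 reads of miR-451 and 8312 of miR-486, both abundant in red blood cells, against 27 and 29 and 7 and 20 in the other CP_0 libraries. miR-142-5p, miR-182, miR-206 and miR-34c were also highest there. CP_7 replicate 1 held 1430 reads of miR-9-5p, a miRNA of neural cells, against 111 and 76, and 709 of miR-370 against 3 and 13. The other 6 of its names were miR-128, miR-129, miR-139, miR-206, miR-381 and miR-543. CP_7 replicate 3 held 1658 reads of miR-126-3p, which marks endothelial cells, against 143 and 333, and was also highest for miR-10a and miR-10b. Only 3 of these names were called with all libraries, namely miR-34c, miR-139 and miR-543. Their log2 fold changes of -4.19, 3.44 and 3.44 became -3.46, 2.10 and 2.37 without the library that stood apart, each with an adjusted p below 0.05 by limma. Without CP_7 replicate 1, miR-9-5p (-0.77, adjusted p = 0.0074 by limma) and miR-129 (-1.16, adjusted p = 0.020) were called lower. Without CP_7 replicate 3, miR-10a (-1.04, adjusted p = 0.027 by limma) and miR-10b (-0.89, adjusted p = 0.039) were lower and miR-126-3p was higher (1.10, adjusted p = 0.014). The calls over all names were 132 without CP_0 replicate 3, 147 without CP_7 replicate 1 and 168 without CP_7 replicate 3.

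**Figure D2:**
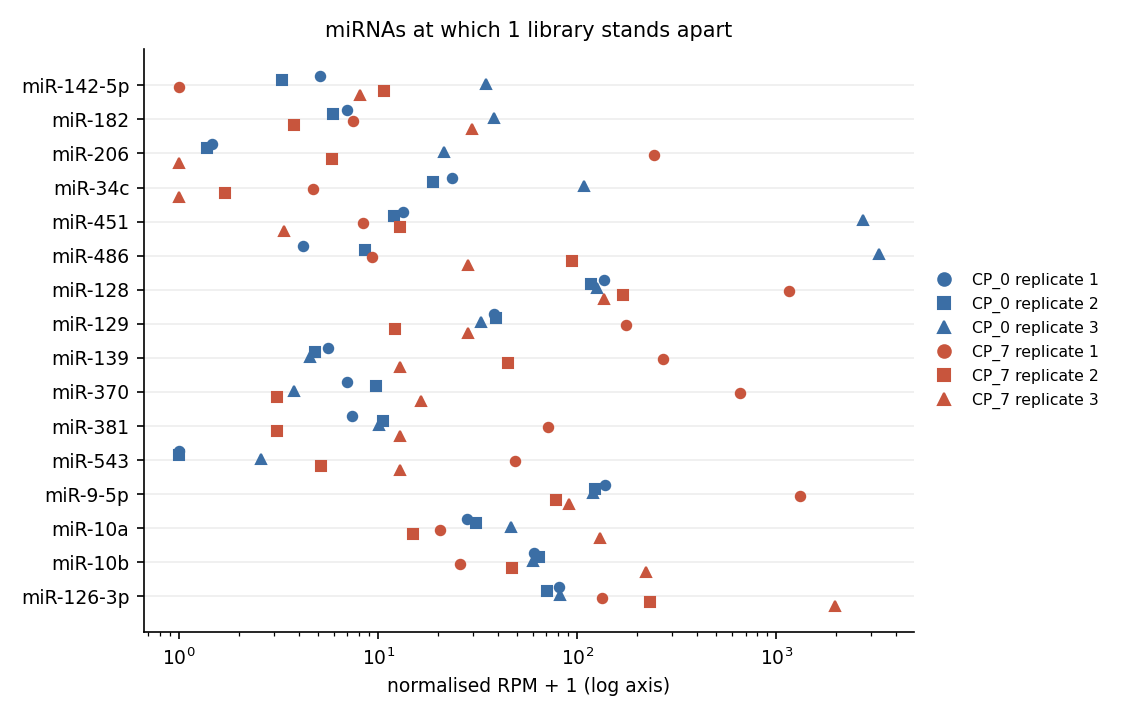
Normalised RPM + 1 (horizontal axis, log scale) of the 16 miRNAs at which 1 library was over 4-fold above the other libraries of its group, 1 symbol for each of the 6 libraries, so that 1 on the axis is 0 reads. CP_0 replicate 3 stands apart at miR-451 and miR-486, CP_7 replicate 1 at miR-9-5p and miR-370, and CP_7 replicate 3 at miR-126-3p.

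Marker lists were read in the same libraries. All 12 names of the mesenchyme and cartilage list had reads in every group, and their summed level, mostly miR-21-5p and miR-143, was lower in every CP_7 library than in any CP_0 library, with 5 names called higher and 5 lower. The blood list (miR-451, miR-144, miR-486, miR-142, miR-223, miR-150) summed to 23.3, 22.5 and 6059.7 normalised RPM in CP_0 and to 16.6, 117 and 38.1 in CP_7, and its 3 tested names, miR-451 (-3.41), miR-142-5p (-0.92) and miR-486 (-0.76), were not called (adjusted p = 0.18, 0.54 and 0.81 by limma). The endothelial sum was 73.7 to 86.4 in CP_0 and 134, 232 and 1979 in CP_7. The neural sum was 123 to 139 in CP_0 and 1351, 89.2 and 104 in CP_7, and of the 4 names of miR-219, miR-219-5p and miR-219b-3p had 0 reads in all 6 libraries and the other two had at most 6 in any. The epithelial list (miR-200a, miR-200b, miR-200c, miR-141, miR-205, miR-429) lay at 42.8 to 58.8 in CP_0 and 2.77 to 10.7 in CP_7. Of its 2 tested names 1 was called lower. The muscle list (miR-1, miR-133, miR-206, miR-208, miR-499) lay at 788 to 988 in CP_0 and 2942 to 4816 in CP_7, with 4 of its 5 tested names called higher. That count was 3 without CP_0 replicate 1, CP_0 replicate 2, CP_7 replicate 2 or CP_7 replicate 3. Over all 246 tested names 35.8% were called higher and 28.0% lower. The liver miRNA miR-122 had 29.7, 30.5 and 18.9 normalised RPM in CP_0 and 41.5, 38.3 and 51.2 in CP_7 (log2 fold change 0.72, adjusted p = 0.039 by limma), a call kept in 1 of the 6 fits that each leave out 1 library, that without CP_0 replicate 2. The part of these lists in the other results was not tested.

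The 3 largest rises were those of 2 predicted miRNAs, novel_342 and novel_37, and of miR-1246. novel_342 had 2, 0 and 0 reads in CP_0 and 99, 166 and 58 in CP_7. From these sums of 2 and 323 reads the ratio of its normalised share was 353 (95% exact interval 96.9 to 2926, counting error only). miR-1246 had 5.94, 6.11 and 5.52 normalised RPM in CP_0 and 309, 309 and 493 in CP_7 (log2 fold change 5.72 ± 0.23 SE, adjusted p = 3.4e-06 by limma). Names such as miR-1246 can also collect fragments of other small RNAs, which these tables cannot separate. novel_37 rose from 63.6, 71.0 and 47.7 to 1064, 1096 and 821 normalised RPM (4.02 ± 0.19). For these 3 names the direction held under all 6 scalings. In CP_0 novel_342 and miR-1246 had too few reads to pass the read filter. They entered the test only through CP_7, where they are high.

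Among miRNAs with known roles, both names of the miR-181 pair were within the 10 largest rises. miR-181b, a regulator of immune and stromal signalling, had 149, 165 and 137 normalised RPM in CP_0 and 1197, 1221 and 921 in CP_7 (2.87 ± 0.14, adjusted p = 4.2e-06 by limma). miR-181a, from the same cluster, had 648, 732 and 623 and then 3637, 3402 and 2863 (2.30 ± 0.12). Both were chosen among names whose groups do not overlap, as were all of the 10 largest rises and falls. miR-210, a target gene of hypoxia-inducible factor, rose from 20.6, 18.7 and 16.6 to 96.9, 109 and 91.6 normalised RPM (2.36 ± 0.18, adjusted p = 2.7e-05 by limma). miR-133a, known from muscle, rose from 39.3, 42.0 and 51.7 to 151, 275 and 210.6 (2.20 ± 0.24). It moved together with miR-1, which shares its clusters and had 743, 794 and 905 normalised RPM in CP_0 and 3109.8, 4478 and 2657 in CP_7 (2.04 ± 0.19). miR-206, which defines skeletal muscle among these names, had 1, 1 and 52 reads in CP_0 and 263, 7 and 0 in CP_7. miR-328 went from 19.7, 14.5 and 24.1 to 94.1, 78.0 and 94.0 normalised RPM (2.16 ± 0.23), and miR-147, an inflammation-linked miRNA, from 11.9, 8.78 and 14.2 to 37.8, 49.5 and 67.8 (2.05 ± 0.30). miR-206 was not called (1.68, adjusted p = 0.52 by limma). The others described here were called with directions that held under all 6 scalings, except miR-1, which was scaling-robust under the 5. miR-139 was the least even of the 10 largest rises, at 10, 10 and 9 reads in CP_0 and 292, 63 and 10 in CP_7. Its log2 fold change was 3.44 ± 0.98, and the call was lost without CP_7 replicate 2 (adjusted p = 0.080 by limma). miR-139 also passed the read filter only with the CP_7 libraries, where it is high.

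The largest falls were led by names that were almost gone at day 7. miR-34c, a target of p53, had 49, 47 and 273 reads in CP_0 and 4, 1 and 0 in CP_7. miR-200a, known for holding epithelial identity, had 35, 41 and 77 reads in CP_0 and 0, 1 and 1 in CP_7. The 153 and 2 reads give a normalised share 35.01 times lower in CP_7 (95% exact interval 9.53 to 291.7, counting error only). With a pseudocount of 5 RPM in place of 1 the log2 fold change of miR-34c went from -4.19 to -2.72 and that of miR-200a from -3.74 to -2.15. miR-18a, of the proliferation-linked miR-17 to miR-92 clusters, fell from 30.6, 27.9 and 26.0 normalised RPM to 4.61, 6.97 and 3.57 (-2.31 ± 0.30, adjusted p = 0.00045 by limma).

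The other 7 of the 10 largest falls ranged from abundant to little-read names. miR-27a-5p, the lesser arm of the miR-27a hairpin, had 865, 897 and 810.4 normalised RPM in CP_0 and 111, 80.1 and 105 in CP_7 (-3.12 ± 0.14, adjusted p = 3.4e-06 by limma). miR-101, which targets the methyltransferase EZH2, had 2279.9, 2407 and 2127 and then 507, 549 and 573 (-2.06 ± 0.09). miR-21-5p fell by 2.45 on the log2 scale (SE 0.13), and by 1.38 with library size only. miR-100, of the miR-99 and miR-100 family, fell from 2.72% ± 0.17 of the reads to 1.59% ± 0.19 (log2 fold change -1.86 ± 0.07). miR-411a, of the imprinted DLK1-DIO3 locus, had 131, 141 and 137 normalised RPM and then 21.2, 26.5 and 28.6 (-2.39 ± 0.17). miR-4286 went from 21.0, 18.7 and 24.1 to 3.69, 4.88 and 5.95 (-1.94 ± 0.29). miR-1260b, whose short sequence resembles fragments of transfer RNA, went from 68.1, 47.0 and 53.3 to 15.7, 9.76 and 23.8 (-1.78 ± 0.34). miR-4286 had 4 to 7 reads in a CP_7 library and miR-1260b 14 to 20, and both were less precise than the other 5. Of the 69 lower calls 20 were kept with library size only, and these include the 10 largest falls except miR-1260b, which was at -0.75 there and not called.

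**Figure D3:**
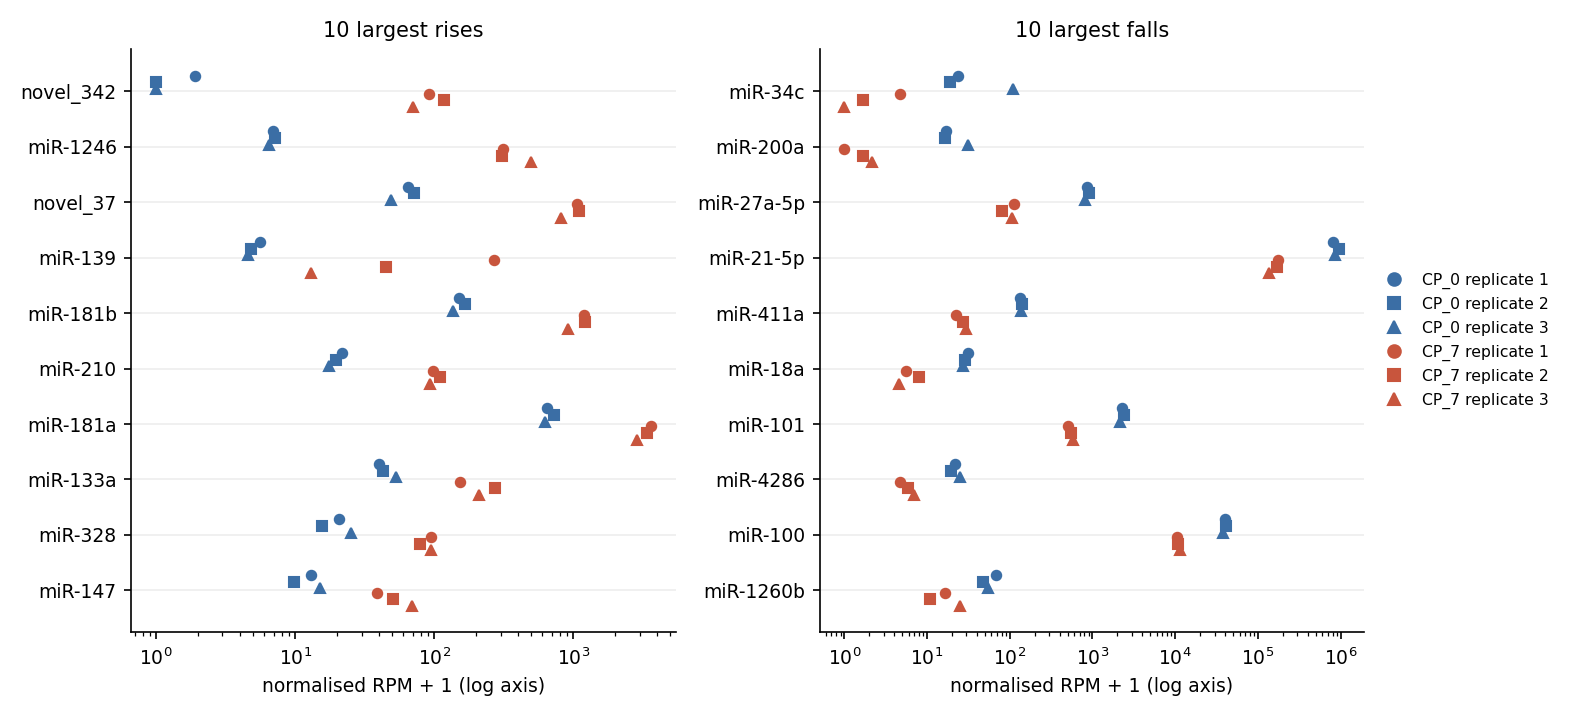
Normalised RPM + 1 (horizontal axis, log scale) of the 10 largest rises (left) and 10 largest falls (right) among called names with a mean of at least 50 reads in a group, chosen also for having no overlap, 1 symbol for each library, so that 1 on the axis is 0 reads. The symbols of miR-139 in CP_7 and miR-34c in CP_0 are the most spread.

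Other scaling-robust falls beyond these were spread over unrelated hairpins and were named after their values were seen. miR-192 and miR-215, which share a seed and respond to p53, both fell. miR-192 had 679, 699 and 673 normalised RPM in CP_0 and 247, 224 and 215 in CP_7 (-1.58 ± 0.10), and miR-215 had 15.1, 16.03 and 20.1 and then 2.77, 1.39 and 3.57 (-2.38 ± 0.36). miR-22-3p, which shares its reads with the name miR-3600, went from 4956 ± 250.2 to 1842 ± 97.8 (-1.43 ± 0.08). miR-185 went from 464 ± 28.3 to 166 ± 27.7 and miR-1271 from 298 ± 36.4 to 91.0 ± 14.9. For each of these every CP_7 library was below every CP_0 library.

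Lists of related miRNAs are described next by their counts and medians, which were not tested as lists, and each count is to be set beside the 35.8% called higher and 28.0% called lower over all 246 names. Among the skeletal miRNAs, members differed in direction. miR-140, the best known cartilage miRNA, had 14060.3, 14322 and 12671 normalised RPM in CP_0 and 6688, 6512 and 6933 in CP_7 (-1.03 ± 0.08, adjusted p = 2.6e-05 by limma). With library size only its log2 fold change was 0.05, so its fall depends on the composition factor, and its RPM as deposited hardly moved. miR-455-3p rose from 28.4, 38.2 and 37.5 to 95.9, 101 and 85.7 (1.43 ± 0.18, scaling-robust), whereas its other arm, miR-455-5p, had 299, 305 and 266 and then 356, 369 and 308 (0.25 ± 0.12, adjusted p = 0.10 by limma). miR-145, which represses SOX9, had 693, 959 and 761 normalised RPM in CP_0 and 1486, 1524 and 942 in CP_7. Its groups overlapped, as the lowest CP_7 value lay under the highest of CP_0. It was called higher (0.69 ± 0.21, adjusted p = 0.023 by limma) but kept the call in 2 of the 6 fits with 1 library left out. The value was 0.40 without CP_7 replicate 1, 0.32 without CP_7 replicate 2, 0.59 without CP_0 replicate 1 and 0.66 without CP_0 replicate 3, and it was -0.47 with no normalization. miR-143, transcribed with miR-145 and acting on smooth muscle and stromal cells, fell by 1.70 (SE 0.12), and was at -0.62 with library size only.

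The loci of miR-199 and miR-214, which are expressed in developing skeletal mesenchyme, had 4 of 7 tested names higher and 1 lower (median 0.59, from -0.57 with no normalization to 1.66 with library size only). The share called was near that of all names (63.8%), and 2 of the 4, miR-199a-3p and miR-3604, are the same reads. miR-199a-3p, with the same reads as miR-3604 within 1%, rose from 7729.6, 7197 and 6689 normalised RPM to 14974, 15438 and 16286 (1.11 ± 0.08). miR-199c rose from 76.8, 60.7 and 65.1 to 229, 243 and 344 (1.98 ± 0.19). miR-214 has its own hairpin and is transcribed together with miR-199a. It was lower at 269, 242 and 234 and then 152.2, 144 and 183 (-0.64 ± 0.13), but was at 0.43 with library size only. miR-199a-5p was higher by 0.59 ± 0.09, a call lost without CP_7 replicate 1 (0.37) or CP_7 replicate 2 (0.30).

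The let-7 family, which restrains stem cell and proliferation programmes, was higher in 9 of its 10 tested names, with let-7a-3p not called (median 0.88, from -0.28 with no normalization to 1.95 with library size only), and 6 of the calls were scaling-robust. Without CP_7 replicate 1 or CP_7 replicate 2 its count was 6 higher. let-7c led, with 396, 402 and 394 normalised RPM in CP_0 and 1960.4, 1348 and 1637 in CP_7 (2.03 ± 0.14, adjusted p = 1.8e-05 by limma). let-7b went from 3909 ± 206 to 8736 ± 600.4 (1.16 ± 0.08), let-7g from 5908 ± 491 to 11326 ± 1438 (0.93 ± 0.12) and let-7a-5p from 7573 ± 404 to 14345 ± 1995 (0.91 ± 0.11). The 2 most read members changed by less than these. let-7i (0.53 ± 0.12) was at 0.30 and 0.20 without CP_7 replicate 1 and CP_7 replicate 2, and let-7f (0.54 ± 0.14) was at 0.24 without either, and both lost their calls in these fits.

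Most tested members were also called higher in the miR-29 and miR-181 families and in the pair of miR-221 and miR-222. The miR-29 family, which targets collagens and other matrix genes, had all 4 tested names higher and scaling-robust (median 1.60, 0.53 with no normalization), and the count was 4 without each library in turn. miR-29a had 1476, 1579 and 1356 normalised RPM in CP_0 and 2779, 2836 and 2867 in CP_7 (0.95 ± 0.08). miR-29b went from 62.2, 60.3 and 50.5 to 138, 144 and 128 (1.24 ± 0.15). With no normalization miR-29a was at -0.21. The miR-181 family had 3 of 4 higher (median 2.13, 0.99 with no normalization). miR-221, which targets the cell cycle inhibitor p27, had 1879, 1979 and 1789.6 and then 6947, 7192 and 6347 (1.86 ± 0.08), and its partner miR-222 had 663, 898 and 675 and then 1605, 1734 and 1314 (1.06 ± 0.16). No CP_7 library was within the CP_0 range for either.

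Within the family of miR-148 and miR-152 the rise was uneven. miR-148a, linked to cartilage matrix production, had 25633, 27025 and 24018 normalised RPM in CP_0 and 98644, 103860.0 and 83350.1 in CP_7 (1.89 ± 0.10, adjusted p = 6.1e-06 by limma). miR-152, with the same reads as miR-148c within 1%, had 1749.9, 1562 and 1541 and then 1423, 1347 and 1806, with overlapping groups (-0.09 ± 0.13), and with library size only it was at 0.98. In all 2 of 5 names were higher and the others were not called, though 2 were called lower without CP_7 replicate 3. Of the inflammation-linked names, miR-155 rose from 834, 1054 and 848 to 4029, 4428 and 2710.3 (2.01 ± 0.19), and with miR-147 it made 2 of 3 tested names higher. The miR-30 family had 2 of 6 names higher and 1 lower, and 1 higher without CP_7 replicate 1 or CP_7 replicate 2. miR-30b-5p rose from 113, 115 and 101 to 439, 421 and 363 (1.88 ± 0.12), miR-30e-5p fell from 844, 1099 and 875 to 380.1, 323 and 255 (-1.56 ± 0.17), and miR-30d, its most read member, had 1383, 1745 and 1401 and then 2006, 2154 and 1315 (0.25 ± 0.20). miR-30b-5p and miR-30e-5p kept opposite directions under the 5 scalings that account for depth.

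Clusters linked to proliferation differed in their members and with the scaling. The miR-17 to miR-92 clusters, induced by MYC and E2F, had 7 of 9 tested names lower and the other 2 not called (median -1.05). With library size only that median was -0.02, with 2 names higher and 1 lower, miR-18a, so the other lower calls needed the composition factor. miR-17-5p had 198, 216 and 172 normalised RPM in CP_0 and 94.1, 92.0 and 107.1 in CP_7 (-0.99 ± 0.14, 0.07 with library size only). miR-20a had 516, 652 and 537 and then 306, 311 and 210.6 (-1.05 ± 0.18, 0.02 with library size only). miR-92a, the most read, had 669, 652 and 1089 and then 792, 790.2 and 741 (-0.01 ± 0.20). Their groups overlapped for miR-92a and not for the other 2. The group of miR-15, miR-16, miR-195 and miR-497 with miR-424, miR-503, miR-450 and miR-542, several of which act on cyclins, had 6 of 11 names lower and 1 higher (median -0.54, and 0.54 with library size only), a share called close to the 63.8% of all names. miR-450a fell from 329, 351 and 330.2 to 132, 113 and 127 (-1.44 ± 0.11, scaling-robust). miR-16b went from 657 ± 55.6 to 453.8 ± 53.7 (-0.54 ± 0.12, -0.82 without CP_7 replicate 1, and 0.54 with library size only), while miR-16a rose from 18.7 ± 0.99 to 64.3 ± 4.1 (1.73 ± 0.18). The family of miR-34 and miR-449 had 2 of 3 names lower, and its most read member miR-34a had 305, 304 and 284 and then 312, 345 and 227 (-0.03 ± 0.16).

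The families of miR-99, miR-100 and miR-125 lie in clusters with let-7 genes and were all called, 2 higher and 3 lower of 5, with 1 higher without CP_7 replicate 1 or CP_7 replicate 2. miR-99a-5p rose from 3429, 3282 and 3187 normalised RPM to 9524, 9114 and 9009 (1.48 ± 0.07, adjusted p = 3.4e-06 by limma), against the fall of miR-100. miR-125b was lower at 3136, 3147 and 2886 and then 2078, 2138 and 2165 (-0.52 ± 0.07), but was at 0.55 with library size only. miR-125a was higher by 0.46 ± 0.11, a call lost without CP_7 replicate 1 (0.25) or CP_7 replicate 2 (0.17). In the clusters of miR-23, miR-27 and miR-24 5 of 8 names were lower and 3 higher, against 28.0% and 35.8% of all names. The higher count was 2 without CP_0 replicate 1 or CP_0 replicate 3 and 1 without any other library, while the lower count was 5 throughout. miR-27b, which targets adipogenic factors, went from 64520.1, 60145 and 60479.6 to 32564, 33191 and 41718 (-0.79 ± 0.11), and miR-24-3p from 9386, 9077 and 8809 to 4472, 4320.2 and 5547 (-0.94 ± 0.11). With library size only these 2 were at 0.28 and 0.14. The groups did not overlap for either. miR-23a and miR-23b-3p were lower by 0.44 and 0.45 on the log2 scale, and were at 0.63 and 0.62 with library size only.

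Smaller lists were mixed. All 3 names of the miR-26 family were higher, but miR-26a and miR-26c share their reads. miR-26b, with 665, 722 and 630.5 normalised RPM in CP_0 and 1557, 1561 and 1419 in CP_7, was scaling-robust (1.17 ± 0.09). miR-26a (0.24 ± 0.08, adjusted p = 0.038 by limma) kept its call only in the fit without CP_7 replicate 3, was at 0.04 without CP_7 replicate 1 and at -0.05 without CP_7 replicate 2, and was at -0.11 with upper-quartile factors. In the miR-320, miR-378 and miR-423 list 3 of 5 were higher and 2 lower, led by miR-378, which lies in the PPARGC1B gene and fell from 2617, 2633 and 2386 to 797, 1039.6 and 834 (-1.52 ± 0.12). Without CP_7 replicate 1 or CP_7 replicate 2 this list had 1 higher and 2 lower. The X-linked cluster of miR-532 and miR-660 had 2 of 4 lower and the others not called, with miR-532 at 1189.8, 1211 and 1110.2 and then 415, 445 and 443 (-1.43 ± 0.08). The list of miR-193 and miR-365 had 2 higher and 1 lower of 6, with 1 higher in 4 of the 6 fits that leave out 1 library, namely CP_0 replicate 1, CP_0 replicate 3, CP_7 replicate 1 or CP_7 replicate 2, and 2 lower without any 1 of the CP_7 libraries. miR-365-5p rose by 1.86 ± 0.26 and miR-193b was lower by 0.63 (SE 0.11), but at 0.44 with library size only. miR-103 (-0.59 ± 0.10) and miR-132 (-0.70 ± 0.17) were called lower in their pairs, and were at 0.48 and 0.35 with library size only. miR-130a (0.17 ± 0.25) and miR-204 (-0.12 ± 0.18) were not called, nor was any other tested name of their families.

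Of the 47 listed miRNAs of the imprinted DLK1-DIO3 locus, only 16 passed the filter, with 5 called higher and 2 lower. miR-411a fell, as above, whereas miR-543 rose from 0, 0 and 4 reads to 52, 6 and 10 and passed the filter only through CP_7. miR-370 had 13, 23 and 7 reads and then 709, 3 and 13, and was not called (2.34 ± 1.75). Without CP_7 replicate 1 the locus had 3 higher and 3 lower of 17, and with any of the CP_0 libraries left out it had 1 higher and 2 lower of 12. Of the 93 names from miR-2282 to miR-2489, which are known mainly from ruminants, 19 were tested, with 5 higher and 4 lower (3 and 5 without CP_7 replicate 1). The most read, miR-2284x, had 429.8, 463 and 364.6 normalised RPM and then 589, 640.4 and 595 (0.54 ± 0.11), a call lost without CP_7 replicate 1 (0.37) or CP_7 replicate 2 (0.26). miR-2285bp fell from 35.2, 61.1 and 45.8 to 18.5, 13.2 and 11.9 (-1.63 ± 0.29). Of 8 tested novel_ names, from 70 listed, 5 were higher and 2 lower (median 2.24). Some of them, such as novel_342 and novel_272, passed the filter only through CP_7, where they are high. The filter thus partly sets this count and median. With any of the CP_0 libraries left out there were 3 higher and 1 lower of 6, and without CP_7 replicate 2 there were 3 higher and 2 lower of 12 with a median of -0.46, since names with fewer reads then pass the filter. The median was 0.33 of 14 names without CP_7 replicate 1 and 0.36 of 12 without CP_7 replicate 3. miR-1248 went from 5, 4 and 0 reads to 39, 32 and 21, and it too passed the filter only through CP_7.

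**Figure D4:**
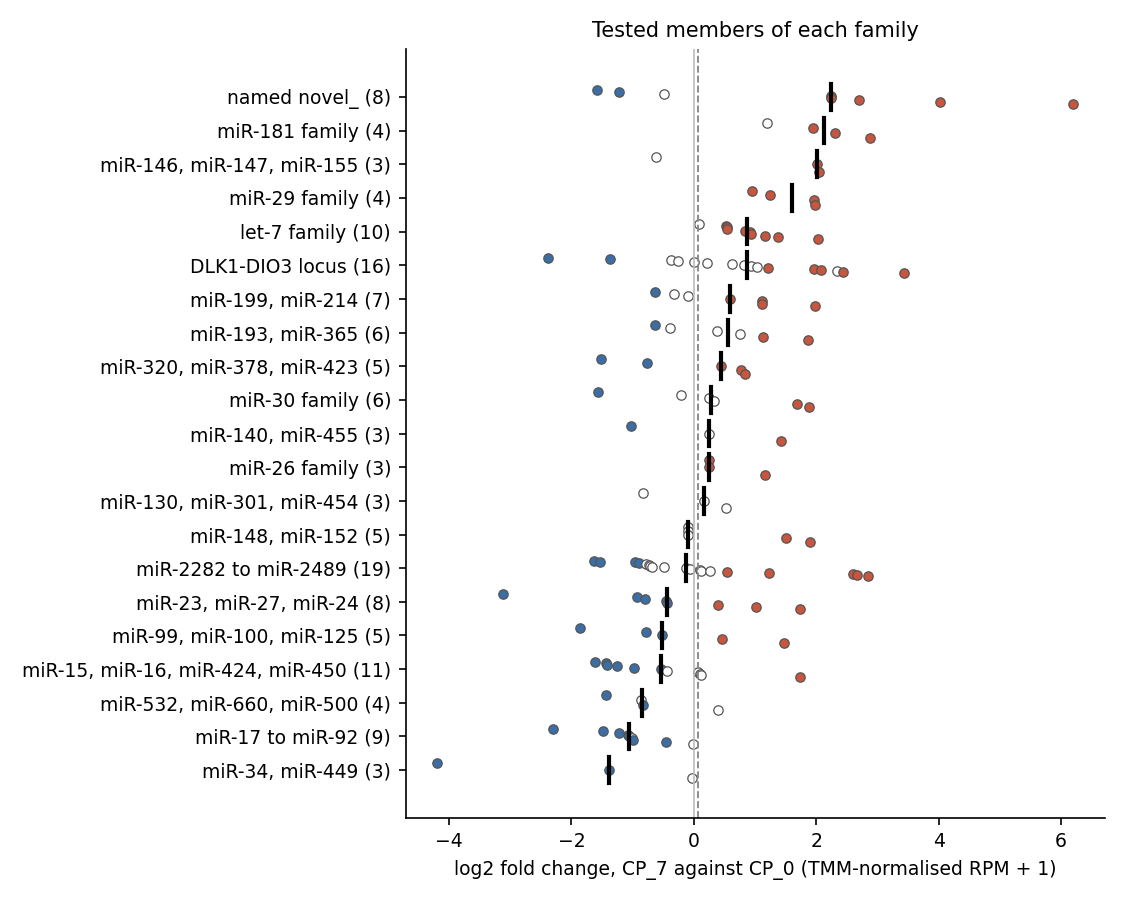
Log2 fold change, CP_7 against CP_0 (horizontal axis), of every tested member of each list with at least 3 tested members, the number in brackets. Filled points were called by limma (red higher, blue lower), open points were not, black bars are list medians and the dashed line is the median of all 246 tested names (0.07), with the miR-181 and miR-29 families to the right and the miR-17 to miR-92 clusters to the left.

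Ratios of 2 names inside a library need no scaling between libraries, and they separate changes between 2 listed names from the composition factor. Some lists join names of different seeds, such as miR-140 and miR-455-5p, so not every ratio lies within a family. A ratio also carries how well each name ligates and maps, so only its change between groups is described. The 2 most read names of each of 21 lists were compared, choosing the lists with earlier results known and the test after the values were seen. In 17 of the 21 the log2 ratios of the groups did not overlap, each with p = 0.1 by the exact two-sided permutation test, the smallest possible (adjusted 0.124). Of all tested names taken singly 67.9% did not overlap, and ratios of arbitrary pairs were not computed. The count of 17 is therefore not a result about these lists. The largest change was in miR-100 to miR-99a-5p, near-identical miRNAs with the same seed. Their log2 ratio was 3.53, 3.63 and 3.58 in CP_0 and 0.14, 0.23 and 0.36 in CP_7, a drop from 11.96 reads of miR-100 per read of miR-99a-5p to 1.18. The ratio of miR-143 to miR-145, 2 miRNAs of 1 transcript, went from 8.01, 7.84 and 8.22 to 5.33, 5.32 and 6.25. That of miR-378 to miR-423-3p, which are not of 1 family, changed by -2.37 on the log2 scale. The ratio of miR-148a to miR-148c rose by 1.99 on the log2 scale, that of miR-34a to miR-449a by 1.42 and that of miR-221 to miR-222 by 0.80. The ratio of miR-140 to miR-455-5p fell by 1.27, that of miR-27b to miR-27a-3p by 1.19 and that of miR-26a to miR-26b by 0.93. By contrast let-7i to let-7f was 2.79 ± 0.03 in CP_0 and 2.78 ± 0.11 in CP_7.

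The balance of both arms of a hairpin was tested in the same scale-free way. Of 19 pairs with enough reads of both names, 12 changed (63.2%) at an adjusted p below 0.05 by limma, 6 toward the 5p name and 6 toward the 3p name, and in 17 pairs both names carried an arm. The miR-27a hairpin changed most toward its 3p arm. It gave 1891, 2349 and 2054 reads of miR-27a-5p beside 14269, 14704 and 15018 of miR-27a-3p in CP_0, and 120, 115 and 88 beside 7978, 10084 and 8050 in CP_7. The log2 ratio of 5p to 3p thus fell by 3.52 (SE 0.20, adjusted p = 2.3e-05 by limma), from -2.81 to -6.33. On the normalised scale the 5p arm fell while the 3p arm was called higher (0.40 ± 0.13), a call kept only without CP_0 replicate 1, with values of 0.18 to 0.39 in the other 5 fits. The 3p arm carries the miR-27 seed.

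The miR-22 hairpin moved the other way. Its 5p arm had 424, 442 and 375 reads beside 11365, 13032 and 11906 of the 3p arm in CP_0, and 265, 368 and 243 beside 1882, 2673 and 1621 in CP_7 (log2 ratio -4.87 to -2.81, change 2.06 ± 0.17, adjusted p = 9.6e-05 by limma). Here miR-22-3p fell and miR-22-5p was higher (0.63 ± 0.14), a call lost without CP_7 replicate 2 (0.40). The miR-331 hairpin went from near balance, with 42, 53 and 58 reads of the 5p arm beside 66, 52 and 59 of the 3p arm, to 49, 60 and 25 beside 12, 13 and 7, so that the 5p arm led in every CP_7 library (change 2.19 ± 0.25). miR-365 (1.14 ± 0.21), miR-23b (1.58 ± 0.35) and let-7a (0.82 ± 0.25) also moved toward 5p. The name miR-24, which carries no arm, rose against miR-24-3p by 2.71 ± 0.34. Toward 3p moved miR-7857 (-1.94 ± 0.28), miR-21 (-1.52 ± 0.27), miR-424 (-1.40 ± 0.37), miR-455 (-1.20 ± 0.20) and miR-199a (-0.53 ± 0.18). For miR-21 the 3p arm had 66, 67 and 69 reads in CP_0 and 20, 26 and 7 in CP_7, and its level of 27.7 ± 2.3 and then 14.97 ± 5.8 normalised RPM was called lower (-0.92 ± 0.34, adjusted p = 0.047 by limma). That call was lost without any 1 of the CP_0 libraries (-0.86, -0.97 and -0.93), and its log2 fold change was 0.10 with library size only. The pairs of miR-151, miR-17, miR-193a, miR-194b, miR-423, miR-425 and miR-9 did not pass the test. In miR-9, CP_7 replicate 1, which stood apart, had a log2 ratio of 5.87, within the 5.41 to 6.42 of CP_0, against 2.76 and 2.87 in the other CP_7 libraries.

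**Figure D5:**
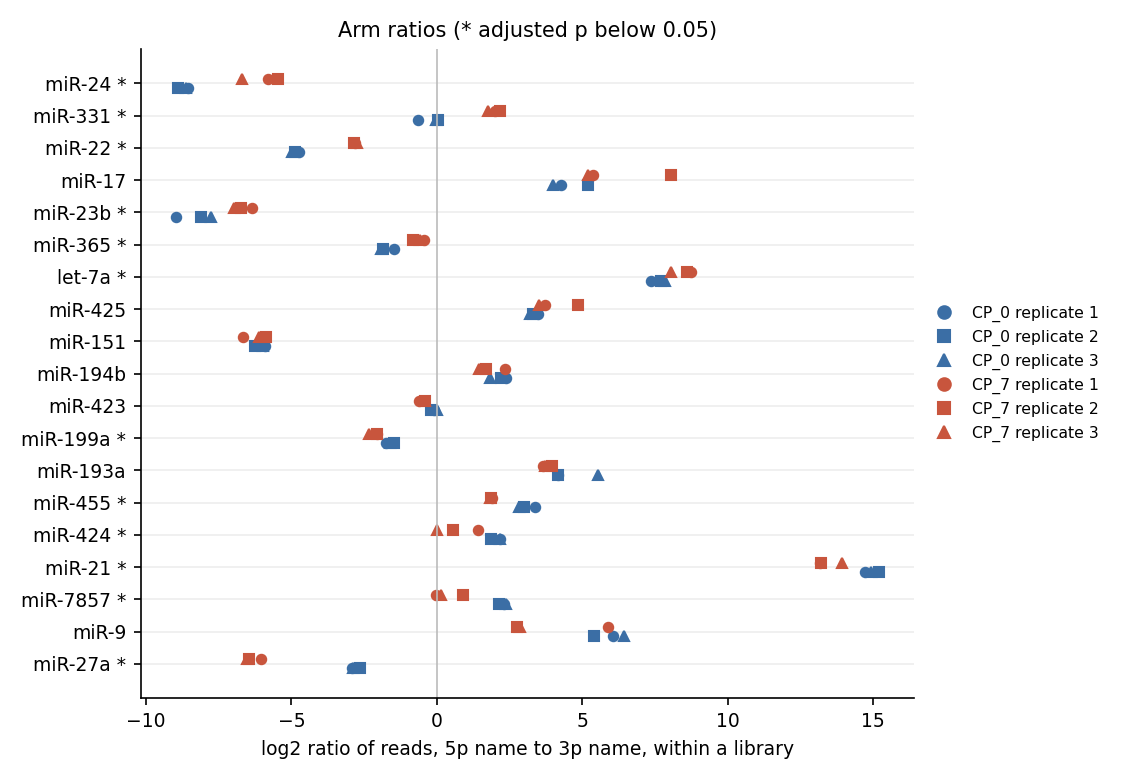
Log2 ratio of reads of the 5p name to those of the 3p name within each library (horizontal axis) for the 19 hairpins tested, ordered by the change, with 1 symbol for each library and * for an adjusted p below 0.05 by limma. miR-27a at the bottom moves by -3.52 to the left, and miR-22 and miR-331 near the top move by 2.06 and 2.19 to the right.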

How the data were processed

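Small RNA libraries of RMCs were made with a NEBNext kit and sequenced on an Illumina NovaSeq. The submitters' processing notes list CASAVA, bcl2fastq 1.8.4 and Bowtie, while the trimming, counting and miRNA database version are not stated there, in the labels or in the methods. The authors deposited RPM values, under a header that calls them TPM, and applied neither a length nor a composition correction. These are normalised values, so limma 3.58.1 (R 4.3.3) with an intensity trend on log2(TMM-normalised RPM + 1) was the main test. It was two-sided, and p-values were adjusted by Benjamini-Hochberg across the 246 names kept by edgeR's filterByExpr (minimum count 10, minimum total 15). TMM factors came from edgeR 4.0.16 over all listed names. Reads were recovered from the RPM of 1 read, and each pair of libraries of a group differed by at least 25.6 chi-square per degree of freedom, which leaves no duplicate among them. Intervals and floors cover counting error only, because PCR copies were not marked by molecular identifiers.

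Arm ratios were tested by limma on log2((5p reads + 0.5)/(3p reads + 0.5)) with at least 10 reads of each arm in at least 3 libraries. The scripts were checked on simulated data. Alternatives were RLE, upper-quartile, library size only, totals without miR-21-5p, no normalization, edgeR's quasi-likelihood test and DESeq2 1.42.0 on recovered reads, other filters and pseudocounts, all 12 libraries in 1 fit, a replicate block, collapsed names that share reads within 1% and each library left out.

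Named miRNAs were the 10 largest rises and 10 largest falls among called names with a mean of at least 50 reads in a group and no overlap, the 10 most abundant, the most abundant and most changed member of each list, and both arms of miR-21 with miR-199a-3p, miR-145, miR-140 and miR-143. Others were chosen after their values were seen, as were the ratios of leading list members and the measure of libraries that stand apart. The comparison, the lists and the tests were chosen with earlier results of these data known. Libraries of day 14 and of chondrocytes entered only the fit of all 12.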

Additional observations from a re-analysis of the deposited data

How the results depend on the processing

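The number of calls stayed within 1.5 times of 157 under every alternative run, from 130 to 168 with 1 library left out, 157 with edgeR's quasi-likelihood test, 159 with DESeq2 and 178 with all 12 libraries in the fit. With 1 library left out, the names called higher were then 21.6% to 32.2% and those called lower 26.1% to 30.6% of the names tested (the higher share was 23.6% without CP_7 replicate 1 and 21.6% without CP_7 replicate 2, against 35.8%), the names changed at least 2-fold 92 to 120, and the changed arm pairs 10 to 13. The split of directions depended on the scaling and on the read filter. Higher and lower calls were 61.8% and 8.13% of the names with library size only and 8.94% and 50% with no normalization. They were 16.9% and 15.9% with no filter, where 485 names enter in place of 246. Of the 175 names with a mean of at least 50 reads in a group, 36% were higher and 37.1% lower. Relative to TMM, the median of all names shifted by 1.05 (log2) with library size only, -1.12 with no normalization, -0.32 with upper-quartile factors and 0.12 with totals without miR-21-5p. The gain in names detected at equal depth was 34.1 in place of 48.6 when at least 10 reads were asked for. The labels do not say whether replicate numbers pair the libraries. The deviations of libraries with the same number correlated at 0.026, -0.13 and -0.14, which cannot decide this with 3 libraries in a group. The replicate block gave 151 calls, 86 higher and 65 lower. The shallow CP_7 libraries limit names under about 10 reads, and 299 listed names were not tested.

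Log2 fold changes that turned sign with library size only were miR-27b 0.28, miR-140 0.047, miR-92a 1.06, miR-16b 0.54, miR-34a 1.03, miR-204 0.94, miR-132 0.35, miR-193b 0.44, miR-103 0.48, miR-21-3p 0.10, miR-10a 1.02, miR-125b 0.55, miR-152 0.98, miR-17-5p 0.073, miR-20a 0.017, miR-214 0.43, miR-23a 0.63, miR-23b-3p 0.62, miR-24-3p 0.14 and miR-486 0.22. With no normalization, which leaves the depth of the libraries in the values, they were let-7i -0.63, let-7f -0.62, miR-199a-3p -0.045, miR-3604 -0.045, let-7a-5p -0.24, let-7g -0.22, miR-29a -0.21, miR-30d -0.91, miR-10b -1.08, miR-26a -0.92, miR-130a -0.94, miR-2284x -0.61, miR-145 -0.47, miR-122 -0.40, miR-125a -0.69, miR-129 -1.04, miR-199a-5p -0.57, miR-22-5p -0.52, miR-222 -0.10, miR-27a-3p -0.76, miR-455-5p -0.91 and miR-9-5p -0.41. With upper-quartile factors they were miR-30d -0.10, miR-10b -0.27, miR-26a -0.11, miR-130a -0.16, miR-129 -0.23 and miR-455-5p -0.10, with RLE miR-10b -0.029, and with totals without miR-21-5p miR-92a 0.11, miR-34a 0.085, miR-10a 0.10 and miR-152 0.026. miR-10a was at 0.63 with edgeR, 0.57 with DESeq2 and 0.041 with a pseudocount of 5. With 1 library left out the ranges that crossed 0 were miR-10a -1.04 to 0.34, miR-10b -0.89 to 0.54, miR-129 -1.16 to 0.71, miR-130a -0.16 to 0.23, miR-204 -0.42 to 0.0033, miR-26a -0.051 to 0.28, miR-30d -0.13 to 0.39, miR-34a -0.41 to 0.067, miR-370 -0.0028 to 3.80, miR-455-5p -0.053 to 0.28, miR-486 -2.53 to 2.29, miR-9-5p -0.77 to 1.27 and miR-92a -0.27 to 0.23. The shift of the median under each scaling is given above, and the cause of these changes of sign was not tested. These lists cover only the miRNAs named by the rules above or added later, so other tested names can also turn sign.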

Other observations

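Several little-studied names with few reads were chosen, after their values were seen, because they were called higher in every scaling. That they rose in every scaling is therefore no further result. miR-677 had 7.32, 6.87 and 5.92 normalised RPM in CP_0 and 26.8, 23.7 and 41.6 in CP_7. miR-9-3p, the arm opposite to miR-9-5p, had 1.83, 2.67 and 1.18 and then 22.1, 11.1 and 11.9, so that all 3 CP_7 libraries were above CP_0 for this arm and not only replicate 1. novel_420 had 8, 5 and 5 reads in CP_0 and 23, 14 and 14 in CP_7, from shallower libraries. novel_272 had 1 read in CP_0 in all and 21 in CP_7, a ratio of normalised shares of 45.9 (95% exact interval 7.38 to 1898, counting error only). miR-2285cl had 2 and 23 reads (ratio 25.1, interval 6.21 to 219.9) and miR-656 had 3 and 21 (ratio 15.3, interval 4.57 to 80.1). All names of this paragraph passed the filter only with the CP_7 libraries, where they are high.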
